A study of Phaseolus vulgaris with 21 samples.

Results

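The transcripts of the secretory floral nectary of common bean were compared with those of the leaf, in 3 libraries of each tissue, which together are 6 of the 21 libraries of the series. The 6 libraries were chosen by their tissue labels, not by any measured value, and all 6359 rows of the deposited table were carried in. Both tissues came from Phaseolus vulgaris cv Blue Lake 274, a garden bean, and the labels name no transgene, mutation or treatment. Plants grew on soil under 16 h of light and 8 h of dark, at 250 µmol of photons per square metre and second and at 23 °C. Secretory nectaries were cut out by hand at full anthesis, 3 h after dawn, and their RNA was extracted at once. For the leaf, neither the hour of sampling nor the age is given in the sources used here. The other 15 libraries were floral nectaries taken 24 h before anthesis (pre1), 12 h before anthesis (pre2) and 12 h after the secretory stage (post), and extrafloral nectaries of leaf and stem. They entered the common estimate of the spread, and their values are given only where they add to a result. No source used here says that the 3 libraries of a tissue came from separate plants, so p-values measure the spread between these libraries, which may be technical.

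A floral nectary is a gland that makes a sugar solution for pollinators. In the model that has come mostly from Arabidopsis and tobacco, sucrose from the phloem or from starch is rebuilt in the gland, leaves the cells through carriers of the SWEET family and is split by invertase in the cell wall, and water follows the sugar. MYB transcription factors of the MYB305 (tobacco) and MYB21 and MYB24 (Arabidopsis) group drive this programme, and CRABS CLAW is needed for the Arabidopsis nectary to form at all. A leaf is the opposite kind of organ, a source of sugar fixed by its own chloroplasts. It served as the non-secreting tissue of the comparison.

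Values are the authors' normalised mapped counts, rounded to whole numbers, for bean reads placed on soybean transcripts, so every name is that of the soybean transcript. They are not divided by transcript length, and levels are therefore compared between tissues and not between genes. A log2 change is the mean of log2(value + 1) over the 3 secretory libraries minus that over the 3 leaf libraries, and a row was called at an adjusted p under 0.05 (limma, Benjamini-Hochberg over 6351 rows). Summed values were 3706046, 3581284 and 3769965 in secretory libraries 1 to 3, against 3082023, 3506662 and 3101111 in leaf libraries 1 to 3. Correlations of log2 values between libraries of 1 tissue were 0.983 to 0.986 for the nectary and 0.960 to 0.966 for the leaf, and those between tissues were 0.524 to 0.572, over the same rows.

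Of the 6351 rows tested, 2902 (45.7%) were called higher in the secretory nectary and 1600 (25.2%) lower, so that 4502 (70.9%) differed. By a log2 change of 2 or more, 1273 (20.0%) were higher and 508 (8.00%) lower. In 2992 rows (47.1%) all 3 secretory values lay above all 3 leaf values, and in 1702 rows (26.8%) they lay below. The median change over all rows was 0.41, and this shift rested on the scaling: it was 0.14 after rescaling by median ratios, 0.13 by median ratios without photosynthesis rows and 0.06 with equal upper quartiles. The share of calls that were higher was 64.5% as deposited and 54.9%, 54.6% and 52.0% under those 3 scalings, and no row called as deposited was called in the opposite direction under them. Under those 3 scalings 2486, 2473 and 2364 of 6350 rows were called higher and 2040, 2060 and 2183 lower. List counts given below under the other scalings are to be read beside these numbers, not beside 45.7% and 25.2%. Small changes are therefore read against that shift.

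The direction of the split is also bounded by what the table holds. Secretory library 1 had no row at 0, and secretory libraries 2 and 3 had 5 and 6, against 212, 308 and 234 in the leaf libraries. Only 2 rows had a value of 1 in secretory library 1, against 78 in leaf library 1. A transcript of the leaf that secretory library 1 lacked has no row here, whereas 131 of the 6359 rows were listed at 0 in all 3 leaf libraries. For those 131 rows the log2 change against leaf rests on the pseudocount and is not given for single rows. Where a tissue had values of only a few units, the log2 change and its SE also depend on the pseudocount. Such changes are to be read with the printed values, not as measured folds. The adjusted p, printed beside the values, was computed with the same pseudocount and depends on it too.

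**Figure D1:**
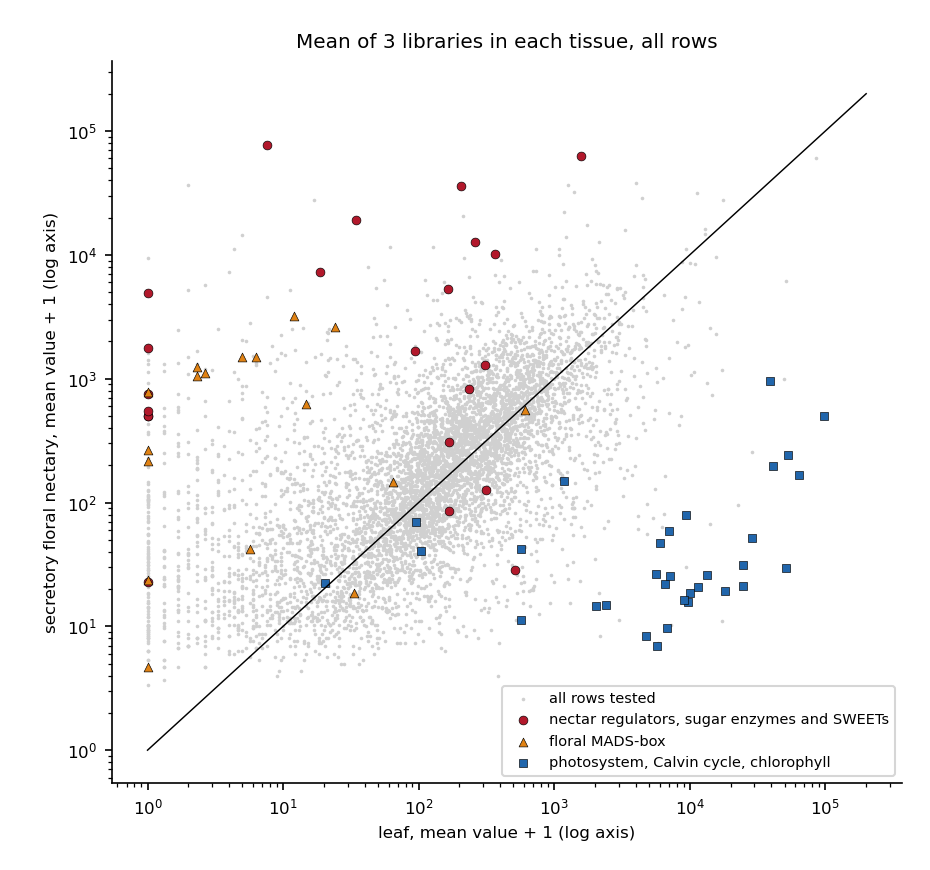
Mean value + 1 of each row in the secretory floral nectary (vertical, log axis) against the leaf (horizontal, log axis), 3 libraries each. The line marks equal values. Members of the photosystem, Calvin cycle and chlorophyll lists lie below it with few exceptions, most of the nectar regulators, sugar enzymes and SWEET carriers lie above it, and the points in the column at the left edge are rows listed at 0 in leaf.

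The factors that control nectaries in other species separated the tissues. All 5 members of the nectar regulator list were called higher in the secretory nectary, beside 45.7% of all rows. Of the 5 members, 4 were listed at 0 in every leaf library, as were 131 of all 6359 rows. The MYB305-like transcript LOC100816972, whose Arabidopsis match is MYB24, had 4745, 5362 and 4698 in the 3 secretory libraries, against 0, 0 and 0 in the leaf libraries (adjusted p = 3.48e-13). MYB98, a further match to MYB24, had 807, 688 and 778, against 0, 0 and 0 (adjusted p = 7.11e-14). MYB182, another match to MYB24, had 507, 459 and 539, against 0, 0 and 0 (adjusted p = 3.5e-14). The 3 transcripts may be near copies of 1 bean gene on the soybean reference, and reads that fit several of them cannot be assigned here. The 5 calls may therefore not be 5 separate results.

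LOC100500026, whose Arabidopsis match the table describes as a plant-specific transcription factor of the YABBY family and whose locus is CRABS CLAW, had 484, 479 and 528 in the secretory nectary, against 0, 0 and 0 in leaf (adjusted p = 5.91e-17). This is the smallest adjusted p among the 245 transcripts named by rule, but the spread behind it was estimated over all tissues of the series. The leaf and stem extrafloral nectaries averaged 0 ± 0 (SD), as did leaf. Tissues at 0 in every library add no spread, which lowers the standard error. The rank is therefore not read as a measure of how strong or repeatable the difference was. The secretory nectary libraries agreed within a narrow range. The NPR5-like transcript LOC100816086, related to the BLADE-ON-PETIOLE genes that Arabidopsis nectaries need, had 283, 334 and 303 in the nectary, against 161, 174 and 163 in leaf. It was higher by 0.88 ± 0.19 on the log2 scale (SE, n = 3 each, adjusted p = 0.000406), and is the only member of the 5 that leaf also carried.

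The regulators were also read across the floral stages. Against the mean of the 3 other floral stages, a contrast in which 795 rows (12.5%) were higher and 405 (6.38%) lower, 3 of the 5 regulators were lower at the secretory stage. LOC100500026 averaged 6571 at pre1, 1825 at pre2, 497 at the secretory stage and 465 at post, and its change against those stages was -1.82 (adjusted p = 3.21e-07). MYB98 (-1.67, adjusted p = 0.000662) and MYB182 (-1.58, adjusted p = 0.000384) were lower as well. For the MYB305-like transcript that change was -0.49 and missed the threshold (adjusted p = 0.481). The NPR5-like transcript was higher by 0.58 (adjusted p = 0.0121). The 2 contrasts share the secretory libraries and are given side by side. A difference from the mean of the other stages does not set the secretory stage apart from each single stage, and a row that stays high at post can also be called higher.

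Sucrose handling was higher in the nectary at each step on the list. All 3 members of the sucrose synthesis and cleavage list were called higher, beside 45.7% of all rows. Together they took 1.28% ± 0.25 of the summed values in the nectary and 0.0249% ± 0.0019 in leaf (SD, n = 3 each). Sucrose synthase 2, LOC100802045, had 30169, 31764 and 46905, against 256, 126 and 226 in leaf, a log2 change of 7.51 ± 0.36 (SE, adjusted p = 9.81e-13). Sucrose synthase splits sucrose reversibly to UDP-glucose and fructose. The second sucrose synthase, SS, had 9154, 9981 and 11235, against 377, 435 and 287 (4.80 ± 0.27, adjusted p = 1.2e-11). Sucrose-phosphatase 1-like, LOC100796915, which finishes sucrose synthesis, had 856, 730 and 877, against 195, 250 and 252 (1.82 ± 0.24, adjusted p = 1.82e-06). In none of the 3 did the tissues overlap, and 47.1% of all rows likewise lay above leaf without overlap. The enzyme of synthesis differed by much less than the 2 of cleavage.

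The SWEET carriers, which let sugars cross membranes in either direction along the gradient, were higher throughout. All 6 of 6 members were called higher, beside 45.7% of all rows. Their median log2 change was 7.01 with a pseudocount of 1 and 5.53 with one of 10, since 3 had no leaf value above 0. The row titled SWEET13-like (LOC100810946) had 61724, 48909 and 76977 in the nectary, against 1567, 2021 and 1143 in leaf (5.32 ± 0.46, adjusted p = 4.41e-09). Its nectary mean was 39.7 times its leaf mean. SWEET6b-like, LOC100791284, had 6767, 6913 and 8196, against 15, 27 and 11 (8.70 ± 0.51, adjusted p = 1.64e-11). LOC102669242, matched to the nodulin MtN3 family that is the older name of SWEETs, had 1632, 1658 and 2036, against 0, 0 and 0 (adjusted p = 2.31e-13). SWEET14-like, LOC100810962, had 799, 436 and 411, against 0, 0 and 0 (adjusted p = 2.01e-14).

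The remaining 2 SWEET rows were higher as well. LOC100305842, a second MtN3 match, had 1569, 1227 and 1074, against 377, 303 and 240 (2.08 ± 0.29, adjusted p = 3.36e-06). SWEET15-like, LOC100800347, had 28, 26 and 12, against 0, 0 and 0 (adjusted p = 0.000922). Among the floral stages the family did not move as 1 body. SWEET14-like was higher at the secretory stage than in the mean of the other stages (1.06, adjusted p = 0.0082), as was LOC100305842 (1.36, adjusted p = 0.000449), whereas SWEET13-like (-0.23, adjusted p = 0.733) and SWEET6b-like (-0.11, adjusted p = 0.895) missed the threshold.

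Invertases cut sucrose to glucose and fructose, and invertase inhibitors block them. Of the 8 rows on this list 5 were called higher and 3 lower, beside 45.7% and 25.2% of all rows. Beta-fructofuranosidase, insoluble isoenzyme 1-like (LOC100777418), whose Arabidopsis matches include cell wall invertase 4, had 14325, 15406 and 27792 in the nectary, against 53, 12 and 36 in leaf (9.27 ± 0.56, adjusted p = 2.77e-11). Cell wall invertase 4 is the enzyme without which Arabidopsis makes no nectar. CWINV, matched to vacuolar and cell wall invertases alike, averaged 12800 ± 2089 in the nectary and 257.7 ± 60.1 in leaf (SD, n = 3 each, adjusted p = 7.45e-13), a nectary mean 49.7 times the leaf mean. The alkaline/neutral invertase LOC100785091 had 1603, 1623 and 1827, against 101, 70 and 108 (4.19 ± 0.27, adjusted p = 8.3e-11).

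LOC100500640, matched to an Arabidopsis cell wall or vacuolar inhibitor of fructosidase, had 65027, 70960 and 95097, against 5, 6 and 9 in leaf (13.31 ± 1.06, adjusted p = 1.47e-09). Cell wall invertase matches and this inhibitor match were thus both far higher in the nectary than in leaf. LOC100306719, matched to the same inhibitor and also to a peroxidase, had 5756, 4727 and 5309, against 123, 69 and 301 (5.25 ± 0.43, adjusted p = 2.16e-09). A row matched to the wider invertase and pectin methylesterase inhibitor superfamily ran the other way, since LOC100527116 had 34, 19 and 30 in the nectary, against 464, 680 and 382 in leaf (-4.15 ± 0.40, adjusted p = 2.21e-08). The neutral invertases LOC100794258 (-1.22 ± 0.25, adjusted p = 0.000232) and LOC100803655 (-0.95 ± 0.20, adjusted p = 0.000355) were lower too, with leaf means 2.47 and 1.95 times the nectary means. The family name thus did not give the direction.

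**Figure D2:**
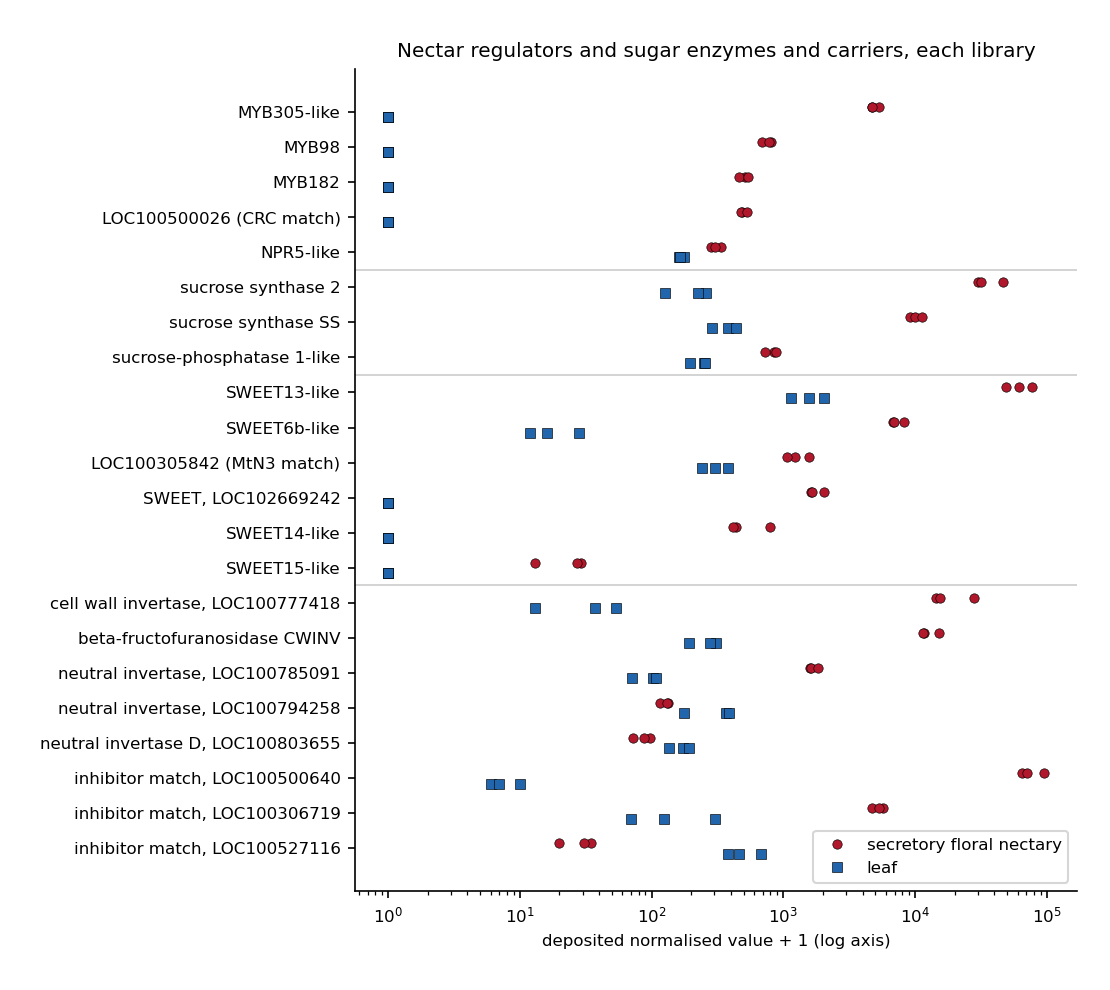
Deposited value + 1 (log axis) of each nectar regulator, sucrose enzyme, SWEET carrier, invertase and invertase inhibitor match in each library, with circles for the secretory floral nectary above squares for leaf. The tissues do not overlap in any of the 22 rows, 3 rows lie lower in the nectary, and 7 rows lie at 0 in all leaf libraries. Of all rows tested, 47.1% lie higher and 26.8% lower without overlap.

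Other sugar carriers did not share this pattern: 4 of 13 were higher and 4 lower, beside 45.7% and 25.2% of all rows. Inositol transporter 1-like LOC100815588 had 666, 1148 and 424 in the nectary, against 44, 39 and 25 in leaf (4.25 ± 0.33, adjusted p = 1.12e-09), and it was higher than in the mean of the other floral stages by 4.03 (adjusted p = 9.28e-09). SUT1, the table's single phloem marker row and a sucrose uptake carrier, had 1165, 1004 and 878, against 1240, 1247 and 1037, overlapping and not called (-0.21, adjusted p = 0.222). After rescaling it was called lower under all 3 scalings. The plastidic glucose transporter 4-like transcript, which exports glucose from starch breakdown in the chloroplast, had 90, 82 and 71, against 290, 171 and 256 (-1.52 ± 0.22, adjusted p = 5e-06).

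Starch genes were mostly lower in the nectary. On the synthesis list 3 of 4 members were lower and none higher, and on the breakdown list 8 of 13 (61.5%) were lower and 3 (23.1%) higher, beside 25.2% lower and 45.7% higher of all rows. Starch synthase IIa-1, LOC100301883, had 293, 261 and 270, against 3217, 2230 and 1857 in leaf (-3.11 ± 0.22, adjusted p = 3.35e-10). The large subunit of glucose-1-phosphate adenylyltransferase, LOC100786313, the committed step of starch synthesis, had 64, 61 and 74, against 542, 637 and 2807 (-3.88 ± 0.42, adjusted p = 9.52e-08). Leaf library 3 stood well above the other two, and the nectary values lay below all of them. Alpha-amylase-like LOC100813490 had 329, 290 and 299, against 2267, 1851 and 2233 (-2.78 ± 0.23, adjusted p = 2.23e-09). DPE2, LOC100793021, which uses maltose from starch in the cytosol, had 66, 74 and 60, against 806, 870 and 646 (-3.51 ± 0.17, adjusted p = 9.67e-13).

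The 3 higher members of the breakdown list were 2 beta-amylase rows and the alpha-amylase-like row LOC100801684, which had 9, 16 and 12 in the nectary, against 0, 0 and 0 in leaf (adjusted p = 1.37e-07). The row BMY1 with accession ending 435, titled inactive beta-amylase-like and matched to Arabidopsis beta-amylase 3, had 6021, 6744 and 5400 in the nectary, against 388, 356 and 437 in leaf (3.94 ± 0.27, adjusted p = 1.29e-10). BMY2 had 3996, 3520 and 3257, against 1346, 2492 and 1573 (1.04 ± 0.27, adjusted p = 0.00196). Summed over all 13 members, breakdown took 0.326% ± 0.034 of the nectary libraries and 0.336% ± 0.046 of the leaf libraries (SD, n = 3 each, exact permutation test, two-sided, p = 0.7), so a difference of the sum was not detectable with 3 libraries a side.

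Photosynthesis separated the tissues in the other direction. All 22 members of the photosystem and antenna list were called lower in the nectary, with a median log2 change of -8.30. So were all 6 members of the Calvin cycle list (median -8.24), beside 25.2% of all rows. The 22 rows held 0.0450%, 0.0446% and 0.0480% of the secretory libraries, against 14.7%, 15.5% and 9.39% of the leaf libraries. With 3 libraries a side the exact permutation test cannot go below p = 0.1, which it reached here. Leaf library 3 was the lowest leaf library in 19 of these 22 rows, and every one of its values still lay above the nectary. Of all rows 26.8% lay lower without overlap. The photorespiration list did not share this direction by row, with 3 of 4 rows higher and 1 lower (median 1.99), beside 45.7% and 25.2% of all rows. Under the other scalings 2 rows of this short list were higher. Its summed share was still lower in the nectary (mean 0.0132%, against 0.045% in leaf).

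CAB3, a chlorophyll a/b-binding protein, had 473, 388 and 644 in the nectary, against 92170, 103785 and 99050 in leaf (-7.64 ± 0.27, adjusted p = 2.01e-14). The small chain of Rubisco, LOC100794277, the carbon-fixing enzyme, had 28, 27 and 31, against 43522, 84967 and 25124 (-10.58 ± 0.42, adjusted p = 7.65e-14). Chlorophyll a-b binding protein CP29.2, LOC100785415, had 20, 22 and 18, against 26090, 33101 and 15102 (-10.13 ± 0.35, adjusted p = 1.38e-14). No nectary value of these 3 rows came near a leaf value. The magnesium chelatase subunit LOC100787735, the entry to chlorophyll synthesis, had 67, 51 and 56, against 7983, 8713 and 4312 (-6.83 ± 0.30, adjusted p = 3.43e-13). Of 4 chlorophyll synthesis rows 3 were lower, beside 25.2% of all rows. In bulk tissue, fewer green cells and less of these RNAs per cell cannot be told apart.

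Large decreases were also found outside photosynthesis proper. Thiamine thiazole synthase 2, LOC100794288, a chloroplast enzyme of vitamin B1 synthesis, had 14, 6 and 10 in the nectary, against 13542, 20788 and 17588 in leaf (-10.67 ± 0.53, adjusted p = 1.62e-12; -9.76 with a pseudocount of 10). Thioredoxin F2 match LOC100306555, which switches Calvin cycle enzymes on in light, had 7, 3 and 12, against 2380, 2274 and 1860 (-8.18 ± 0.46, adjusted p = 9.74e-12). Organelle ribosomal proteins were lower in 11 of 16 rows (68.8%) and higher in none, whereas cytosolic ribosomal proteins were higher in 9 (16.7%) and lower in 15 (27.8%) of 54, beside 45.7% and 25.2% of all rows. The lower count of cytosolic ribosomal rows was 25 to 27 under the other scalings, where 2040 to 2183 of all 6350 rows were lower. Of the 54 changes 42 were within 1 log2 unit.

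**Figure D3:**
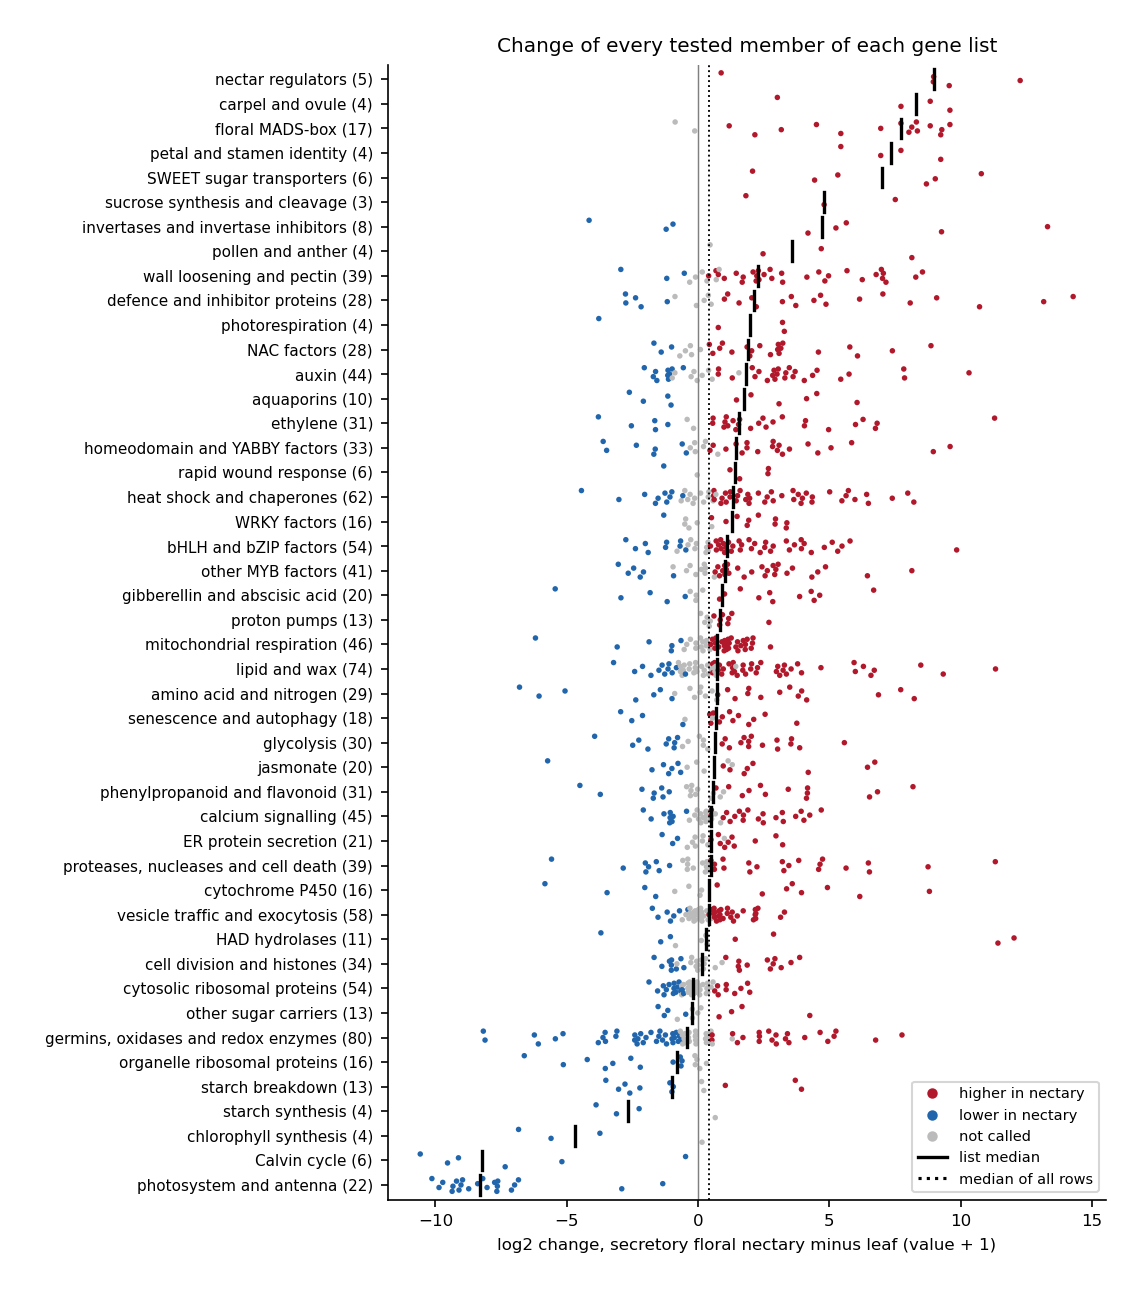
Log2 change (secretory floral nectary minus leaf) of every tested member of each gene list, with the number of members in brackets, coloured by call, with the list median as a bar and the median of all rows as a dotted line. Regulator, floral identity, SWEET and sucrose lists lie at the right end, and photosystem, Calvin cycle and chlorophyll lists at the left end.

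Respiration and glycolysis were read next. Mitochondrial respiration had 28 of 46 rows (60.9%) higher and 6 (13%) lower, beside 45.7% and 25.2% of all rows, with a median of 0.73. Under the other scalings the median fell to 0.37 to 0.46, and 21 or 22 rows were higher and 10 lower. The Rieske subunit of the cytochrome b-c1 complex, LOC100806917, had 3965, 3019 and 3044 in the nectary, against 607, 923 and 874 in leaf (2.07 ± 0.19, adjusted p = 9.6e-09). One row matched to mitochondrial ATP synthase subunit 9, LOC106797210, went the other way, with 120, 65 and 53, against 3187, 11364 and 4647 (-6.19 ± 0.56, adjusted p = 7.92e-09). In glycolysis 15 of 30 rows (50%) were higher and 9 (30%) lower, close to the shares of all rows. Cytoplasmic fructose-bisphosphate aldolase LOC100778363 had 15891, 12989 and 13063, against 984, 1553 and 1130 (3.54 ± 0.25, adjusted p = 2.95e-10). Chloroplast triosephosphate isomerase LOC100819824 had 98, 88 and 120, against 1544, 2747 and 903 (-3.94 ± 0.41, adjusted p = 5.19e-08).

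Proton pumps make the gradient that drives carriers across membranes, and 8 of 13 rows (61.5%) were higher and none lower, beside 45.7% and 25.2% of all rows. Under each other scaling 7 were higher. Their summed share was 1.21% ± 0.08 in the nectary and 0.444% ± 0.026 in leaf (SD, n = 3 each). The plasma membrane ATPase 1-like transcript LOC100805218 had 25310, 28543 and 31705, against 5138, 5018 and 3241 (2.70 ± 0.30, adjusted p = 1.34e-07). The other 12 pump rows differed by 0.10 to 1.29, the last of these in the vacuolar subunit A, LOC100775727, with 1945, 2248 and 2015, against 753, 993 and 810 (1.29 ± 0.21, adjusted p = 2.33e-05).

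All 10 aquaporin rows, channels for water and small solutes, were called, beside 70.9% of all rows. Of these, 6 were higher and 4 lower, beside 45.7% and 25.2% of all rows. TIP4-1-like, LOC100793258, of the vacuole membrane, had 3331, 2992 and 2983 in the nectary, against 49, 43 and 45 in leaf (6.05 ± 0.40, adjusted p = 8.41e-11). PIP2-1-like, LOC100815583, of the plasma membrane, had 5517, 5105 and 3022, against 233, 291 and 230 (4.13 ± 0.34, adjusted p = 1.93e-09). Another plasma membrane member was lower, since PIP-type 7a-like LOC100791447 had 1042, 998 and 760, against 5117, 5922 and 6029 (-2.62 ± 0.23, adjusted p = 7.98e-09). The sum of the 10 rows was 0.294% ± 0.048 in the nectary and 0.209% ± 0.017 in leaf (SD, n = 3 each), with no overlap between the tissues. Under the other scalings 5 rows were higher.

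Higher calls in the general export machinery stood close to the background of the table. Of 21 rows for protein entry and folding in the endoplasmic reticulum, 10 were higher and 3 lower, and of 58 rows for vesicle traffic and exocytosis, 28 were higher and 7 lower. The shares called higher, 47.6% and 48.3%, beside 45.7% of all rows, do not set the lists apart. Neither does a median of 0.40 in vesicle traffic against 0.41 over all rows. The shares called lower, 14.3% and 12.1%, were below the 25.2% of all rows. Under the other scalings 5 or 6 rows of the first list and 13 or 15 of the second were lower. Lower calls over all 6350 rows also rose there, to between 2040 and 2183. Single members did stand out, as did the exocyst subunit EXO70A1 (LOC100775958), which tethers vesicles at the plasma membrane, with 468, 509 and 534, against 117, 102 and 91 (2.28 ± 0.21, adjusted p = 1.07e-08). Calreticulin-1, LOC100037475, a calcium-binding chaperone, had 222, 204 and 362, against 552, 709 and 727 (-1.37 ± 0.34, adjusted p = 0.00161).

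Defence and inhibitor proteins were higher in 18 of 28 rows (64.3%) and lower in 5 (17.9%), beside 45.7% and 25.2% of all rows. Albumin 1, A1, the cysteine-rich legume seed protein from which insect-toxic peptides are known in pea, had 39199, 28857 and 42063, against 2, 1 and 0 in leaf (adjusted p = 1.8e-10). Its log2 change was 14.28 with a pseudocount of 1 and 11.69 with one of 10. Snakin-2-like, LOC100795140, of a family of antimicrobial peptides first described in potato, had 9097, 7135 and 11868, against 0, 0 and 0 (adjusted p = 1.09e-09). A Kunitz-type trypsin inhibitor match, LOC100527288, had 3103, 2183 and 2120, against 2, 0 and 0 (adjusted p = 1.37e-11). The summed share of the list was 1.98% ± 0.21 in the nectary and 0.214% ± 0.029 in leaf. Among the members lower in the nectary was LOC547666, titled lectin, which had 468, 256 and 380, against 2019, 2732 and 2532 (-2.75 ± 0.31, adjusted p = 1.54e-07).

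Lipid transfer proteins, small carriers of the extracellular space, included LOC100500124 with 10902, 9787 and 12744, against 3, 3 and 4 (11.33 ± 0.75, adjusted p = 9.6e-11). LOC100306273, a second row of that superfamily, had 4971, 4179 and 4576, against 3, 10 and 7 (9.34 ± 0.69, adjusted p = 4.9e-10). The family did not move as 1: LOC100306510, matched to lipid transfer protein 3, was lower (591, 611 and 711, against 2212, 1300 and 1544, adjusted p = 0.00308). Over the whole lipid and wax list 39 of 74 rows (52.7%) were higher and 12 (16.2%) lower, beside 45.7% and 25.2% of all rows, and 34 were higher and 17 or 18 lower under the other scalings.

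Haloacid dehalogenase-like (HAD) hydrolases, phosphatases of mostly unknown substrate, included 2 rows with changes above 10 at either pseudocount. LOC100814291 had 28985, 27068 and 27618, against 8, 38 and 2 in leaf (11.42 ± 0.66, adjusted p = 1.51e-11). LOC547648 had 13086, 14170 and 15866, against 9, 3 and 0 (12.03 ± 0.60, adjusted p = 1.76e-12). Of the 11 HAD rows 4 (36.4%) were higher and 3 (27.3%) lower, beside 45.7% and 25.2% of all rows, with a median of 0.30 that ranged from -0.05 to 0.03 after rescaling. The summed share of 1.41% ± 0.06 in the nectary, against 0.105% ± 0.035 in leaf, rested on LOC100814291, LOC547648 and LOC100777400. LOC100306100, matched to the glyoxalase I family that clears methylglyoxal, had 7428, 6827 and 7639, against 7, 0 and 2 (11.30 ± 0.53, adjusted p = 7.19e-13).

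**Figure D4:**
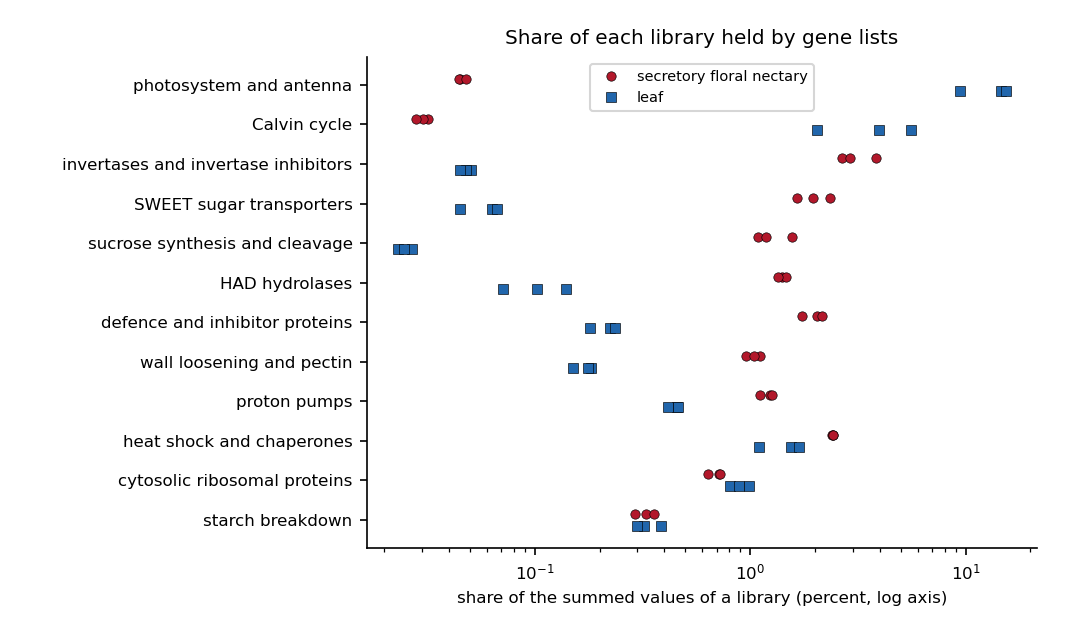
Share of the summed values of each library held by 12 gene lists (percent, log axis), with circles for the secretory floral nectary and squares for leaf. Photosystem rows sit between 0.0446% and 0.0480% in the nectary and between 9.39% and 15.5% in leaf, invertase, SWEET and sucrose rows sit at the high end in the nectary, and starch breakdown overlaps.

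Of 39 wall loosening and pectin rows 30 (76.9%) were higher and 3 (7.69%) lower, beside 45.7% and 25.2% of all rows. Of these, 23 were higher by a log2 change of 2 or more, beside 20.0% of all rows. A xyloglucan endotransglucosylase, LOC100778993, which cuts and rejoins wall xyloglucan, had 1490, 2433 and 2158, against 5, 4 and 4 in leaf (8.55 ± 0.69, adjusted p = 1.54e-09). The polygalacturonase LOC100797601, matched to ADPG2 of organ separation in Arabidopsis, had 413, 252 and 586, against 1, 0 and 0 (8.29 ± 0.52, adjusted p = 4.15e-11). It was also higher than in the mean of the other floral stages by 5.01 (adjusted p = 1.09e-07), though it was high at post as well. Pectin acetylesterase 10-like LOC100788448 had 1209, 1308 and 922, against 5, 13 and 5 (7.16 ± 0.38, adjusted p = 4.46e-12). A different xyloglucan endotransglucosylase, LOC100817874, was lower, with 208, 216 and 202, against 1656, 1661 and 1512 (-2.94 ± 0.18, adjusted p = 3.94e-11).

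Proteases and nucleases linked to cell death were higher in 20 of 39 rows (51.3%) and lower in 8 (20.5%), near the 45.7% and 25.2% of all rows. Metacaspase-9, LOC100781510, a protease that clears dying xylem cells in Arabidopsis, had 6258, 5295 and 4031 in the nectary, against 1, 1 and 1 in leaf (11.32 ± 0.40, adjusted p = 1.56e-14). Its mean was 13 at pre1, 137 at pre2, 5195 at the secretory stage and 4311 at post, and it was higher at the secretory stage than in the mean of the other 3 by 4.70 (adjusted p = 9.28e-09). The ribonuclease 1 match LOC100305644 had 2730, 1770 and 1613, against 7, 3 and 2 (8.76 ± 0.59, adjusted p = 1.23e-10), and was higher than in the mean of the other stages by 3.96 (adjusted p = 1.3e-05). Both had low values at pre1 and high values at the secretory stage and at post.

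Single cysteine proteases differed in both directions. The cysteine proteinase CYSP1 had 35817, 31898 and 28456, against 797, 1578 and 1839 (4.59 ± 0.27, adjusted p = 1.86e-11), and RD21a-like LOC100807362 had 33079, 38335 and 41932, against 3262, 3270 and 5570 (3.27 ± 0.28, adjusted p = 2.99e-09). Cysteine protease-like LOC100170694, matched to the aleurain-like protease, had 1055, 976 and 948 in the nectary, against 31954, 56172 and 59683 in leaf (-5.58 ± 0.27, adjusted p = 1.07e-12). The senescence and autophagy list had 12 of 18 rows (66.7%) higher and 4 (22.2%) lower, beside 45.7% and 25.2% of all rows, and 9 higher and 5 lower under each other scaling. Among the higher rows was autophagy-related protein 9 (LOC732654), with 1130, 1388 and 1086, against 250, 157 and 212 (2.55 ± 0.22, adjusted p = 5.66e-09).

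Of 31 ethylene rows 24 (77.4%) were higher and 5 (16.1%) lower, beside 45.7% and 25.2% of all rows, and 20 or 21 were higher under the other scalings. ACC oxidase forms ethylene in the last step of its synthesis, and the row LOC100815336 had 5148, 6248 and 5876 in the nectary, against 2, 0 and 3 in leaf (11.29 ± 0.57, adjusted p = 2.02e-12). A second ACC oxidase, LOC100790622, had 958, 793 and 594, against 4, 6 and 8 (6.82 ± 0.41, adjusted p = 2.33e-11). The step before it was opposite, since ACC synthase ACS1 had 106, 97 and 84, against 1532, 1100 and 1412 (-3.79 ± 0.39, adjusted p = 5.6e-08).

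Auxin rows were higher in 25 (56.8%) and lower in 10 (22.7%) of 44, beside 45.7% and 25.2% of all rows. The SAUR-type transcript LOC100794597, titled auxin-induced protein 6B-like, had 1172, 1046 and 1691, against 0, 0 and 0 (adjusted p = 2.49e-13). The indole-3-acetic acid 7 match LOC100811879, a repressor of auxin response, had 220, 265 and 201, against 0, 0 and 0 (adjusted p = 7.86e-13), and was higher than in the mean of the other floral stages by 2.46 (adjusted p = 1.38e-05). Gibberellin and abscisic acid rows were higher in 11 (55%) and lower in 5 (25%) of 20, near the shares of all rows. Gibberellin 20 oxidase 2-like LOC100816992, of gibberellin synthesis, had 252, 211 and 203, against 0, 0 and 9 (6.69 ± 0.86, adjusted p = 1.1e-06), and was higher than in the mean of the other floral stages by 4.91 (adjusted p = 6.33e-05). The gibberellin 20 oxidase 1-like row LOC100809985 was lower (185, 175 and 186, against 986, 3430 and 810, adjusted p = 7.88e-05).

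Jasmonate, which controls nectar secretion in several species, gave no common direction by row. Of 20 rows 8 (40%) were higher and 7 (35%) lower, beside 45.7% and 25.2% of all rows, and 4 were lower without leaf library 3. The summed share, which includes LOX9 below, was lower in the nectary without overlap (0.1441% to 0.1613%, against 0.2945% to 0.401% in leaf). The JAZ-type repressor TIFY 10A-like LOC100801449 was higher, with 298, 308 and 321, against 74, 47 and 106 (2.09 ± 0.36, adjusted p = 3.47e-05). The jasmonate receptor row COI1 was lower, with 380, 362 and 384, against 700, 470 and 789 (-0.76, adjusted p = 0.000686). A second row of that title, LOC100779171, had 84, 83 and 84, against 318, 221 and 328 (-1.75 ± 0.20, adjusted p = 1.56e-07). Among lipoxygenases, which start jasmonate synthesis and other oxylipin routes, LOX9 had 62, 72 and 247, against 5983, 5184 and 5470 (-5.73 ± 0.58, adjusted p = 4.23e-08), whereas VLXB had 61, 57 and 186, against 0, 0 and 0 (adjusted p = 2.54e-07).

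Transcription factor families were read beside the 45.7% higher and 25.2% lower of all rows. NAC factors were higher in 20 (71.4%) and lower in 3 (10.7%) of 28, and WRKY factors in 10 (62.5%) and 1 (6.25%) of 16. The bHLH and bZIP factors were higher in 36 (66.7%) and lower in 9 (16.7%) of 54, and other MYB factors in 26 (63.4%) and 6 (14.6%) of 41. Homeodomain and YABBY factors were higher in 20 (60.6%) and lower in 7 (21.2%) of 33. Under the other scalings the lower counts were 5 or 6 for NAC, 3 or 4 for WRKY and 9 or 10 for other MYB factors. The higher counts there were 16 or 17 for NAC, 9 for WRKY, 22 or 23 for other MYB, 32 or 33 for bHLH and bZIP, and 18 for homeodomain and YABBY factors. Over all 6350 rows 2364 to 2486 were called higher and 2040 to 2183 lower under those scalings. NAC92-like LOC100785620 had 5957, 4923 and 4716, against 7, 12 and 12 in leaf (8.87 ± 0.73, adjusted p = 2.13e-09). NAC72, LOC100811301, a factor of drought and abscisic acid responses in Arabidopsis, had 825, 710 and 559, against 14, 3 and 17 (6.07 ± 0.60, adjusted p = 3.27e-08). Both were higher at the secretory stage than in the mean of the other floral stages, by 2.50 (adjusted p = 0.00566) and 3.64 (adjusted p = 3.63e-05). That mean includes post, at which NAC72 was high as well. The homeobox transcript SBH1-like LOC100805837, of the KNOX family that keeps meristems undifferentiated, had 696, 863 and 772, against 0, 0 and 0 (adjusted p = 1.03e-14). Leaf kept the homeodomain-leucine zipper factor ATHB-6, LOC100777924, with 304, 381 and 300 in the nectary, against 4636, 3465 and 3998 in leaf (-3.61 ± 0.26, adjusted p = 3.53e-10).

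**Figure D5:**
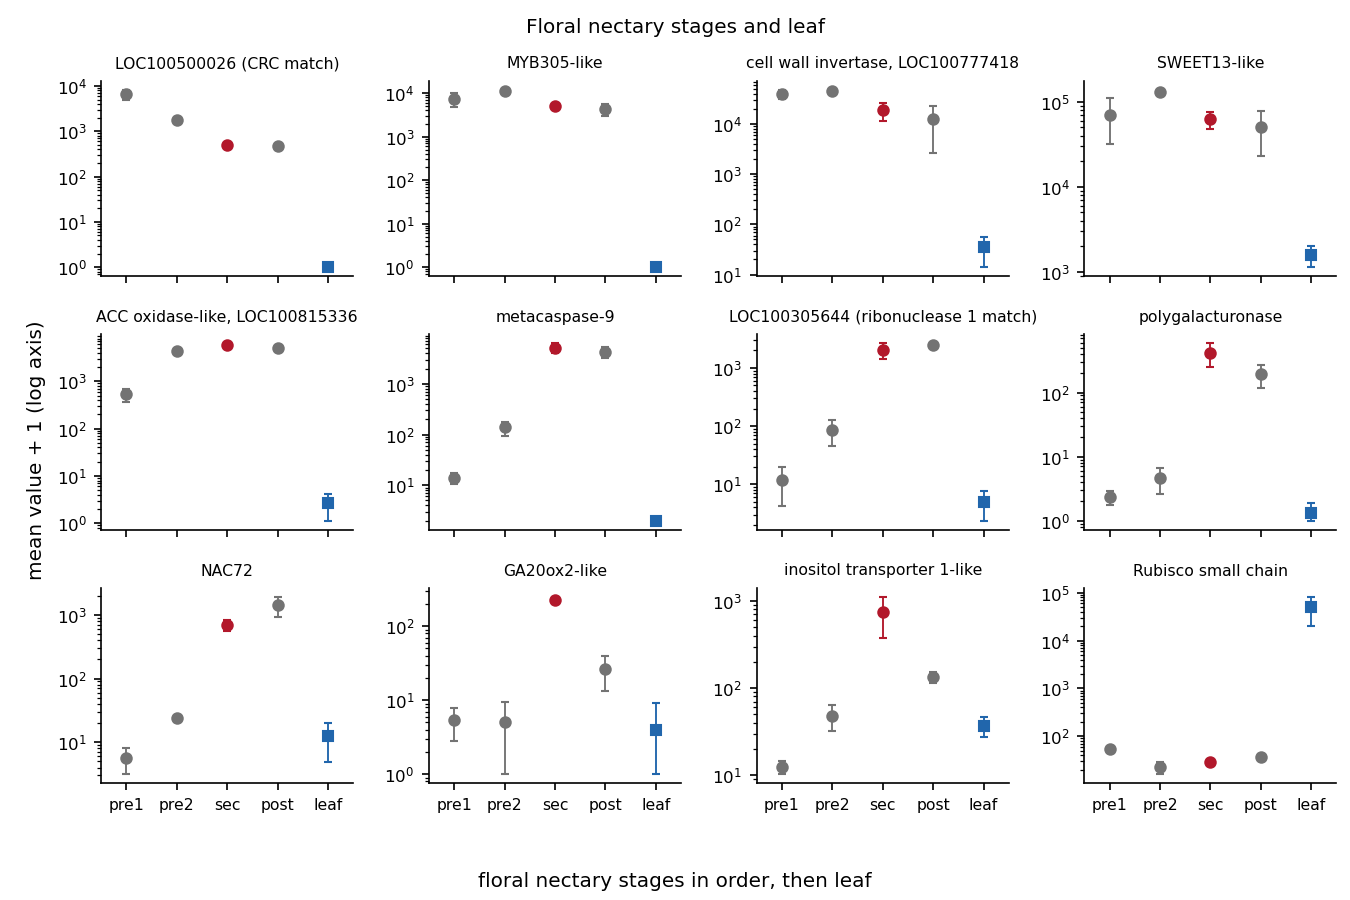
Mean value + 1 (log axis) with 1 SD, cut at 0, over 3 libraries for 12 transcripts at 4 floral nectary stages in time order and in leaf at the right. Regulator and sugar rows are already high at pre1, metacaspase-9, the ribonuclease 1 match, polygalacturonase and NAC72 are high from the secretory stage on, gibberellin 20 oxidase 2-like (GA20ox2-like) and inositol transporter 1-like are highest at the secretory stage, and the Rubisco small chain is low at every floral stage.

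Of 29 amino acid and nitrogen rows 14 (48.3%) were higher and 7 (24.1%) lower, near the 45.7% and 25.2% of all rows. Inducible nitrate reductase 2, INR2, had 15, 20 and 18 in the nectary, against 3054, 1770 and 1628 in leaf (-6.80 ± 0.56, adjusted p = 2.48e-09). Ferredoxin-dependent glutamate synthase, LOC100809299, which works in the chloroplast, had 67, 57 and 56, against 5460, 4143 and 2915 (-6.05 ± 0.29, adjusted p = 8.41e-13). Ammonium transporter 1 member 1-like LOC100818774 had 27, 16 and 18, against 650, 557 and 934 (-5.07 ± 0.32, adjusted p = 4.19e-11). Higher rows were the cytosolic glutamine synthetase LOC547621, with 1639, 1113 and 1787, against 1, 9 and 5 (8.23 ± 0.70, adjusted p = 3.18e-09), and proline dehydrogenase PDH, the first step of proline breakdown, with 762, 776 and 770, against 6, 0 and 6 (7.72 ± 0.46, adjusted p = 2.38e-11).

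Of 80 redox rows 22 (27.5%) were higher and 34 (42.5%) lower, beside 45.7% and 25.2% of all rows. Peroxidase PRX2B had 11, 5 and 15, against 2662, 4039 and 2265 (-8.11 ± 0.38, adjusted p = 7.53e-13), and the iron-superoxide dismutase SODB2 had 65, 54 and 45, against 4115, 8234 and 2097 (-6.23 ± 0.57, adjusted p = 1.06e-08). Cationic peroxidase 2-like LOC100789782 was on the other side, with 459, 487 and 550, against 2, 3 and 0 (7.77 ± 0.56, adjusted p = 3.91e-10). Metallothionein type 2, MET2, a metal-binding protein, had 7327, 5433 and 5700, against 37905, 60429 and 56648 (-3.05 ± 0.28, adjusted p = 1.15e-08). LOC100101840, matched to the alpha/beta-hydrolases, had 84118, 61755 and 36551 in the nectary, against 54674, 115375 and 87387 in leaf, overlapping and not called (-0.51, adjusted p = 0.432).

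Flavonoid and phenylpropanoid rows were higher in 13 (41.9%) and lower in 8 (25.8%) of 31, near the 45.7% and 25.2% of all rows. Leucoanthocyanidin dioxygenase LOC100820497, of anthocyanin synthesis, had 954, 1073 and 959, against 1, 1 and 9 (8.18 ± 0.52, adjusted p = 5.44e-11). Isoflavone reductase homolog IFR2 had 61, 49 and 49, against 597, 3574 and 838 (-4.50 ± 0.58, adjusted p = 1.02e-06), with leaf library 2 far above the other leaf libraries. Cytochrome P450 rows (8, 50%, higher and 4, 25%, lower of 16) and calcium signalling rows (21, 46.7%, higher and 9, 20%, lower of 45) were near those shares too.

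Because the glands were cut out of flowers, markers of neighbouring floral organs were read in the same libraries. Of 17 floral MADS-box rows 15 were higher and none lower, beside 45.7% and 25.2% of all rows, and 1 was lower under each other scaling, with a pseudocount of 10, with the 6 libraries fitted alone and without secretory library 2. Their summed share was 0.392% to 0.421% of the nectary libraries, against 0.0187% to 0.0273% of leaf. The carpel factor AGAMOUS-like LOC100776263 had 745, 699 and 878, against 0, 0 and 0 (adjusted p = 1.03e-14). The petal and stamen factor NMH7, whose Arabidopsis locus is APETALA3, had 946, 1046 and 1342, against 0, 5 and 0 (9.24 ± 0.47, adjusted p = 2.17e-12). AP1A was not called, with 540, 506 and 619, against 642, 522 and 658 (-0.13, adjusted p = 0.645).

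The next lists overlap the MADS-box list and are not separate results. All 4 petal and stamen identity rows are on it, as are the carpel and ovule rows LOC100792224 and LOC100776263. All 4 petal and stamen identity rows were higher (0.115% to 0.129% of the nectary libraries, against 0.000746% to 0.00184% of leaf). So were all 4 carpel and ovule rows (0.110% to 0.124%, against 0.00391% to 0.00606%) and 3 of 4 pollen and anther rows (0.0745% to 0.0826%, against 0.0113% to 0.0236%). Of all rows 45.7% were called higher. The anther factor row MYB35-like LOC100800764 had 319, 309 and 453, against 0, 1 and 0 (8.14 ± 0.88, adjusted p = 9.93e-08). The part of attached floral tissue in the results above was not tested. No row matched the guard cell or trichome markers. The 1 epidermis row was not called (-0.16, adjusted p = 0.637), and the 1 xylem row, LOC100804687, was higher by 0.77 (adjusted p = 0.0278), a call lost without secretory library 2 (adjusted p = 0.109), leaf library 1 (0.145) or leaf library 2 (0.0517) and under each other scaling.

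Signs of handling and of the hour were read beside these results. Heat shock and chaperone rows were higher in 40 (64.5%) and lower in 10 (16.1%) of 62, beside 45.7% and 25.2% of all rows, with a summed share of 2.42% ± 0.02 in the nectary and 1.45% ± 0.31 in leaf (SD, n = 3 each). Under the other scalings 35 of these rows were higher and 13 or 14 lower. The small heat shock protein HSP22.5 had 247, 254 and 257, against 0, 0 and 0 (adjusted p = 3.39e-11), and was higher than in the mean of the other floral stages by 3.01 (adjusted p = 3.16e-05). Of 6 rapid wound response rows 4 were higher and 1 lower, beside 45.7% and 25.2% of all rows. Their summed share overlapped (0.0352% to 0.0429% in the nectary, against 0.0250% to 0.0457% in leaf). Nectaries were dissected by hand and the handling of leaf is not given, so tissue and handling cannot be told apart.

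Clock rows moved in both directions. REVEILLE 1, LOC780539, a morning factor, had 1478, 1585 and 1316, against 85, 91 and 84 (4.05 ± 0.24, adjusted p = 2.66e-11), whereas LCL1, of the LHY and CCA1 pair that also peaks in the morning, had 1189, 1553 and 1688, against 8919, 5447 and 6691 (-2.23 ± 0.32, adjusted p = 3.7e-06). GIGANTEA, LOC100779044, an evening gene, had 1444, 1803 and 1557, against 3127, 2421 and 2984 (-0.83 ± 0.27, adjusted p = 0.00975). The morning and the evening list each had 5 of 9 rows (55.6%) higher and 2 (22.2%) lower, near the 45.7% and 25.2% of all rows. They share 1 row, LOC100809490_XM_006604851.2, which was higher by 0.84 (adjusted p = 0.0247), a call lost under each other scaling (adjusted p = 0.118 to 0.171). Under the other scalings 3 or 4 morning rows were higher and 2 lower, and 4 evening rows were higher and 3 lower. That call was also lost without secretory library 2 or leaf library 3 (adjusted p = 0.0949 and 0.0697). The hour of the leaf sample was not given, and the part of time of day in the results was not tested.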

How the data were processed

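RNA from 7 bean tissues was sequenced as paired reads of 50 bp on 2 lanes, 3 libraries each, per the labels' protocols. The deposited score per row is a mapped count that the authors normalised and rounded, under a column heading that reads UQN, which no source used here spells out. The submitters' processing notes name DESeq. The aligner is not given in the sources used here, and neither is the build. In leaf library 2 the value 2 was held by 3 rows and the values 1 and 3 by 123 and 88, so 1 read was worth more than 1 unit there. Reads per value could not be recovered, so no counting interval is given.

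Values were tested as log2(value + 1) with limma 3.58.1 (R 4.3.3, intensity trend, two-sided moderated test) in 1 fit over all 7 tissues (14 residual degrees of freedom), with Benjamini-Hochberg adjustment over 6351 rows of mean 1 or more, and 8 rows were left out. No library was dropped or imputed. Gene lists (53, holding 1160 rows, 18.2%) were matched on titles, Arabidopsis descriptions or Arabidopsis loci. Counts per list are read against the shares of all rows, with no test of a list. Members and lists were chosen with earlier results of these data known. Named transcripts are the 10 most increased and 10 most decreased abundant rows without overlap, the 10 highest rows of each tissue, up to 3 members per list and direction, and every regulator, SWEET, invertase and sucrose member; a few further list members (SUT1, COI1, VLXB, AP1A, LOC100801684, the epidermis row) were added with their values known. Alternatives were pseudocount, filter, scaling, tissues fitted, trend, threshold, replicate block and each library left out. No sequences are shown.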

Additional observations from a re-analysis of the deposited data

Results flagged for a closer look

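Transcription factor matches in 2 rows had log2 changes of opposite sign against leaf in the secretory floral nectary and in the extrafloral nectaries. The DEFICIENS-like petal and stamen factor LOC100784496 averaged 2610 ± 190 in the secretory floral nectary and 1.67 ± 1.16 and 3.67 ± 2.52 in the leaf and stem extrafloral nectaries, against 23.3 ± 17.0 in leaf (SD, n = 3 each). Its log2 change against leaf was 6.96 in the floral nectary and -2.70 in the extrafloral nectaries. The contrast of floral against extrafloral nectaries, from which the leaf values drop out, was 9.66 (limma, adjusted p = 4.45e-14). The YABBY match LOC100499942 averaged 2786 ± 241 in the secretory floral nectary and 0.333 ± 0.577 and 14.0 ± 8.89 in the extrafloral nectaries, against 47.7 ± 7.57 in leaf. Its changes against leaf were 5.85 and -3.60, and the contrast of floral against extrafloral nectaries was 9.45 (limma, adjusted p = 1.11e-13). Neither p tests the extrafloral nectaries against leaf, where values were low and the change depends on the pseudocount. Leaf means of both rows were low, and the extrafloral means were lower still.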

How the results depend on the processing

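No row called as deposited was called in the opposite direction under any alternative run. Higher and lower calls against leaf numbered 2902 and 1600 as deposited and 1519 and 677 when the change had to exceed a log2 of 1. They were 2486 and 2040 by median ratios, 2364 and 2183 with equal upper quartiles, and 2700 to 2861 and 1432 to 1577 with any 1 library left out. Against the other floral stages 405 rows were lower, and 695 when those libraries alone were fitted; the cause was not tested. Same-numbered libraries did not deviate together (r = -0.14, -0.17 and -0.03). With the replicate block the counts were 2879 and 1589 against leaf, 757 and 374 against the other floral stages, and 2730 and 1832 against the extrafloral nectaries. Of the 245 named transcripts 48 lost the call when the change had to exceed a log2 of 1, 4 lost the call with equal upper quartiles, 1 with the block and at most 5 with any 1 library left out, and none reversed. The ratio of summed shares, with no call, changed side without the 10 highest rows for rapid wound response (0.973, against 1.06) and for senescence and autophagy (0.93, against 1.02). Rows missing from secretory library 1, the unknown reads per value, and soybean names that may share reads limit the rest.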
